A study of Mus musculus with 12 samples.

Results

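The genes described are the nuclear-encoded subunits of the mitochondrial respiratory chain and ATP synthase in mouse oligodendrocyte progenitor cells (OPCs), the glial cells that mature into myelin-forming oligodendrocytes. They were chosen by symbol, and 84 of the 20540 genes of the authors' expression table matched. By symbol, 37 belong to complex I, 4 to complex II, 8 to complex III, 18 to complex IV and 17 to complex V, the ATP synthase. The cells were taken from the brain of C57BL/6 mice aged 6 to 7 days after birth, were grown in a proliferation medium that the labels call SATO + PDGFRA, and were all transfected with a biotin-tagged synthetic microRNA mimic. The mimic was either a control or miR-27a, and both whole-cell RNA and RNA from a pulldown of the biotin tag were sequenced. This gave 4 groups of 3 libraries: whole-cell control, whole-cell miR-27a, pulldown control and pulldown miR-27a. Untransfected cells are not among the groups, and no source used here states which sequence the control mimic has. Nothing in the labels says that replicates are separate cultures. The p-values therefore reflect only how far these libraries spread, which may be technical.

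The respiratory chain sits in the inner mitochondrial membrane. Complexes I and II pass electrons from NADH and succinate to ubiquinone, complex III passes them on to cytochrome c, and complex IV reduces oxygen. Complexes I, III and IV pump protons, and complex V uses the returning protons to make ATP. All complexes but the second also hold subunits encoded by mitochondrial DNA, and OPCs draw on this chain for the energy that proliferation and membrane synthesis need. A microRNA mimic loads into Argonaute, the protein that carries microRNAs, and lowers mRNAs that pair with its seed, while a biotin pulldown is meant to recover RNA bound to the mimic.

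Some symbols matched the rule without being subunits. Cox4nb is a synonym of Emc8, a gene of the endoplasmic reticulum membrane complex, in the RefSeq gene table. Atp5s (ATP synthase coupling factor B), Atp5sl, Cox7a2l (a factor for supercomplex assembly) and Ndufa4l2 (a paralog of Ndufa4) are not counted as core constituents of the complexes either. Ndufa4 is named for complex I but is now counted with complex IV. Subunits such as Ndufab1 and Cyc1 carry other symbols and are given below in a separate list, which also holds genes that are not subunits. None of 26 spellings of the 13 mRNAs encoded in mitochondrial DNA matched a row, so these mRNAs are not analysed here.

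Libraries held 15548418 to 24972188 assigned reads. The OPC label was checked against 10 markers. All 10 had reads in every library, and Pdgfra, the growth factor receptor that defines these cells, lay between 490.3 and 1610.2 CPM. CPM are read counts scaled by the authors to library size times a normalisation factor. The factors recovered from the values were 0.961 to 0.974 in whole-cell and 1.021 to 1.055 in pulldown libraries. Relative to library totals they lower pulldown and raise whole-cell CPM. Markers of oligodendrocytes and astrocytes were abundant too. The 3 libraries of each whole-cell group lay close together for the respiratory genes, whereas the pulldown libraries did not. In pulldown miR-27a replicate 1, 77 of 79 tested members lay above their group mean, by a median of 0.17 on the log2(CPM + 1) scale. In replicate 2 of the same group 77 of 79 lay below it, by a median of -0.16, while the medians over all genes tested were 0.01 and -0.01. The control pulldown libraries showed the same order to a smaller degree, with 70 of 79 members above the group mean in replicate 1 and 67 below it in replicate 2. Cytosolic ribosomal protein genes deviated alike in the 2 miR-27a pulldown libraries (0.15 and -0.17), and so did glycolysis genes (0.17 and -0.17). The counts of called members in the comparisons below that use pulldown libraries, and the sums of pulldown against whole-cell RNA, are therefore also given without replicate 1 or 2.

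**Figure D1:**
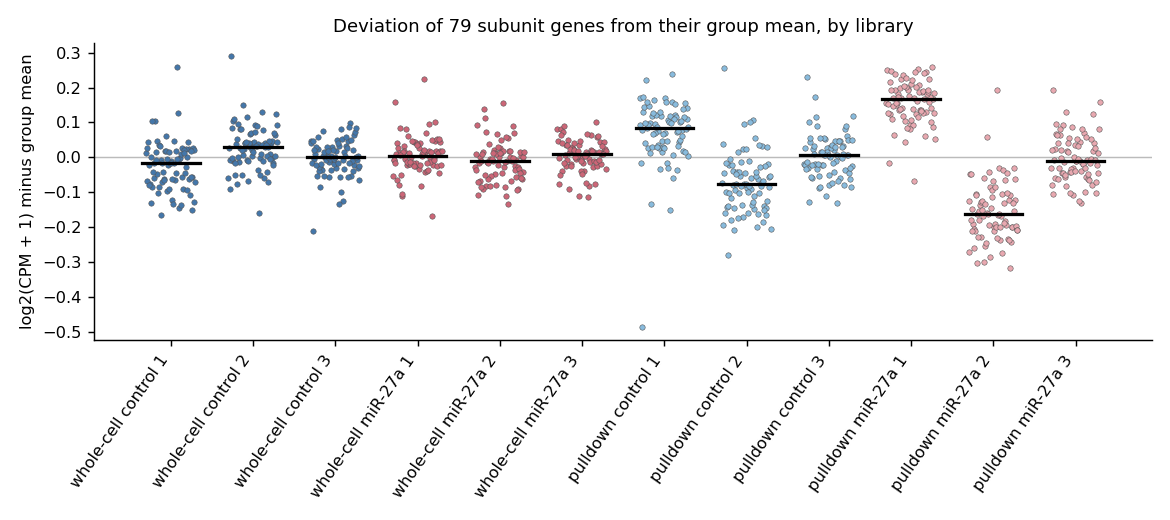
Deviation of each of 79 respiratory genes from its own group mean in each library, on the log2(CPM + 1) scale. Points are genes, the black line is the median of the library, and the 4 groups are told apart by colour. The cloud of pulldown miR-27a replicate 1 sits above 0 (median 0.17) and that of replicate 2 below it (median -0.16), while whole-cell libraries centre near 0.

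Respiratory genes were among the well-expressed genes of these cells. Together the 84 genes made up 14541 ± 261 CPM in whole-cell control RNA (SD, n = 3) and 14503 ± 91.1 CPM under miR-27a. Levels between genes are compared per kilobase of exon, as the mean over the 12 libraries. On that scale Atp5b, the catalytic beta subunit of ATP synthase, was highest with 862 CPM per kb, followed by Atp5a1, the alpha subunit, with 563. Cox4i1, the main regulatory subunit of cytochrome c oxidase, had 549 CPM per kb, Cox8a 494, and Uqcrh, the hinge protein of complex III, 485. Ndufa4 was highest among genes named for complex I with 412 CPM per kb, and Sdhb, the iron-sulfur subunit, was highest in complex II with 185. At the other end of the tested genes stood Ndufb2 in complex I (9.61 CPM per kb), Sdhc in complex II (23.8), Uqcrq in complex III (36.9), Cox7a1 in complex IV (2.55) and Atp5sl in complex V (2.01). Of these, Atp5sl is not counted as a core constituent and Cox7a1 is a muscle isoform. Ndufb2, Sdhc and Uqcrq were assigned exon lengths of 4375, 3171 and 1521 bases, against a median of 908 over the tested members. The exon length assigned to a gene enters each of these values. The low ends therefore do not show by themselves how far RNA levels differ between subunits that assemble together.

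Tissue-restricted isoforms were nearly silent. Cox4i1 lay between 354 to 554 CPM in the 12 libraries, whereas its paralog Cox4i2, known from lung, had 72 reads in all libraries together. Cox6a1 lay between 205 to 293 CPM, and the heart and muscle isoform Cox6a2 had 5 reads in all. The muscle isoform Cox7a1 had 240 reads over all libraries, against 134 to 195 CPM for its liver-type counterpart Cox7a2. Cox7b2 had 27 reads in all and Cox8b 1 read, against 119 to 188 CPM for Cox7b and 203 to 322 CPM for Cox8a. Cox6b2, a testis isoform, was detected at 1.82 to 3.39 CPM against 151 to 240.3 for Cox6b1. Ndufa4l2 had 11 reads in 6 of the 12 libraries. Cox8c, the third isoform of that subunit, had no row in the table and is not analysed here. Where a library had 0 reads for a gene, counting error alone allows a level of up to 3 reads, or 0.116 to 0.2 CPM depending on the library. The 3 genes Atp5g1, Atp5g2 and Atp5g3 encode the same mature c subunit of the rotating ring from different precursors. All 3 were expressed, at 111 ± 4, 151 ± 4.4 and 165 ± 2.5 CPM in whole-cell control RNA (SD, n = 3). Reads that such similar genes or processed pseudogene copies may share were not measured.

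The first comparison set pulldown RNA against whole-cell RNA under the control mimic. It asks which RNAs the pulldown holds more or less of in cells given no miR-27a mimic. Most respiratory genes were lower in the pulldown. All 4 complex II genes together summed to 741, 793 and 777 CPM in the 3 whole-cell control libraries and to 639, 611 and 628 in the pulldown control libraries. For complex V the sums were 5573, 5797 and 5650.4 CPM against 4637, 4268 and 4539, and for complex III they were 1383, 1434 and 1441 against 1163, 1004 and 1133. In these 3 complexes every pulldown library lay below every whole-cell library. Complex I summed to 4173, 4366 and 4261 CPM in whole-cell and 3971, 3539 and 3693 in pulldown control libraries, again without overlap. Complex IV was the exception, with 2422, 2422 and 2389.5 CPM against 2509, 2153 and 2353, where pulldown replicate 1, the library with 70 of 79 members above the group mean, lay above all 3 whole-cell libraries. As shares of the whole-cell means, the sums changed by -12.5% in complex I, -18.7% in complex II, -22.5% in complex III, -3.04% in complex IV and -21.0% in complex V. The complex IV change rests on single libraries. It was -6.57% without pulldown replicate 1, with no overlap left, and 0.80% without replicate 2. Without replicate 1 or 2 the other changes were -15.2% and -10.2% in complex I, -19.5% and -17.7% in complex II, -24.7% and -19.1% in complex III and -22.4% and -19.1% in complex V. The sums, here and under miR-27a, use the authors' scaling, whose factors were higher in every pulldown than in every whole-cell library. They were not recomputed with library totals, which would raise the pulldown sums and lower the whole-cell sums. The lack of overlap in complex I and the sign of the complex IV change are therefore given for the authors' scaling only. Sums follow their most abundant genes, and Atp5a1 and Atp5b were the largest contributors to the complex V sum in each group.

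**Figure D2:**
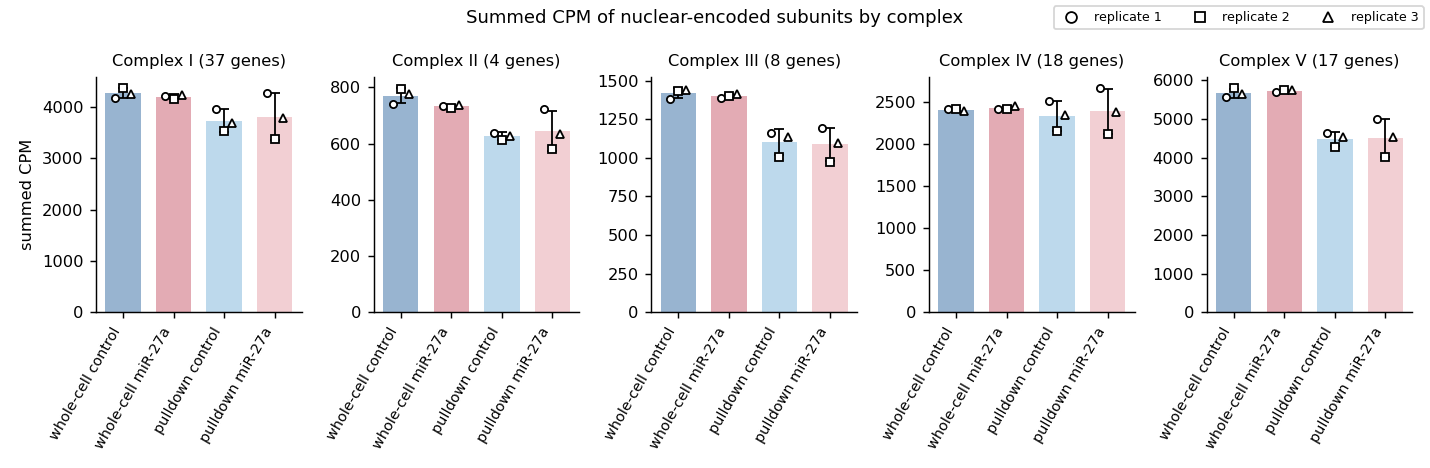
Summed CPM of the subunit genes of each complex in the 4 groups. Bars are group means from 0, error bars are SDs over 3 libraries, and symbols are the libraries by replicate number. The pulldown bars of complexes II, III and V stand below the whole-cell bars with no overlap of libraries, and in complex IV the libraries overlap.

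Gene by gene, 54 of 79 tested members were lower in the control pulldown and 5 were higher in limma's test (Benjamini-Hochberg adjusted over all genes, threshold 0.05). Over all 13875 genes tested, 62.0% passed, 30.3% as lower and 31.7% as higher, so changes were common in this comparison and the members leaned to the lower side. The median log2 change was -0.33 over the members and 0.02 over all genes tested. The counts were 24 lower and 2 higher of 36 in complex I, 3 lower of 4 in complex II, 7 lower of 8 in complex III, 5 lower and 3 higher of 14 in complex IV, and 15 lower of 17 in complex V. Medians were -0.32, -0.41, -0.39, -0.05 and -0.42 in that order. Leaving out each library in turn kept 48 of the 59 calls in every fit. Without pulldown control replicate 1 the counts were 57 lower and 2 higher, and without replicate 2 they were 47 and 6.

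Within complex II the subunits differed. Sdhc, a membrane anchor (chromosome 1, 171127165 to 171150603, minus strand, GRCm38), had 107, 94.4 and 97.8 CPM in whole-cell control libraries and 62.1, 53.6 and 59.2 in the pulldown, a log2 change of -0.77 ± 0.11 (SE, adjusted p = 5.09e-06). It was the deepest fall among all members, and the libraries of the 2 groups stayed far apart. Sdhd, the other anchor, changed by -0.42 ± 0.07 (SE, adjusted p = 7.97e-05) and Sdhb by -0.40 ± 0.08 (SE, adjusted p = 0.000475). Sdha, the flavoprotein that oxidises succinate, had 266, 292 and 293 CPM in whole-cell and 269.8, 283 and 277 CPM in pulldown control libraries. Its groups overlapped, and the change of -0.03 ± 0.06 (SE, adjusted p = 0.643) did not pass the test.

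In complex V the lower level ran through the catalytic head, the stalks and the membrane part. Atp5f1, subunit b of the peripheral stalk, had 399.9, 412 and 391 CPM in whole-cell and 265, 275 and 272 CPM in pulldown control libraries, which do not overlap. Its log2 change was -0.57 ± 0.05 (SE, adjusted p = 7.15e-08). Atp5h, subunit d of the same stalk, changed by -0.60 ± 0.07 (SE, adjusted p = 1.12e-06), and Atp5e, the epsilon subunit of the F1 part, by -0.58 ± 0.07 (SE, adjusted p = 8.59e-07). All 5 genes of the F1 part, which holds the catalytic head (Atp5a1, Atp5b, Atp5c1, Atp5d and Atp5e), were lower, by log2 changes from -0.58 to -0.22. The Atp5b and Atp5d calls were lost in 2 and 1 of 6 fits that left out 1 library (adjusted p up to 0.0865). Of the 3 c-ring genes, Atp5g1 (-0.42 ± 0.08, SE) and Atp5g3 (-0.50 ± 0.09) were lower, and Atp5g2 at -0.09 ± 0.10 (SE, adjusted p = 0.436) was not called. The only other gene not called was Atp5sl, at 0.19 ± 0.12 (SE, adjusted p = 0.173).

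Complex III behaved much like complex V. Uqcrb, the ubiquinone-binding accessory subunit, had 122, 111 and 123 CPM in whole-cell and 81.3, 74.5 and 75.3 in pulldown control libraries, a log2 change of -0.62 ± 0.07 (SE, adjusted p = 9.06e-07). Uqcrfs1, the Rieske iron-sulfur protein, changed by -0.39 ± 0.06 (SE, adjusted p = 3.13e-05), and the core protein Uqcrc2 by -0.44 ± 0.06 (SE, adjusted p = 2.11e-06). Uqcrc1, the other core protein, had a change of -0.25 ± 0.09 (SE, adjusted p = 0.021), a call lost in 3 of 6 fits that left out 1 library (adjusted p up to 0.155).

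Complex I was mixed. Ndufv3, an accessory subunit of the NADH-oxidising module (chromosome 17, 31520115 to 31531331, plus strand), had 136, 156 and 153 CPM in whole-cell and 104, 82.9 and 92.6 in pulldown control libraries, a log2 change of -0.67 ± 0.09 (SE, adjusted p = 2.38e-06). The core subunit Ndufs1, which carries iron-sulfur clusters, changed by -0.41 ± 0.06 (SE, adjusted p = 4.05e-06), and Ndufv2 by -0.40 ± 0.06 (SE, adjusted p = 3.01e-05). Ndufa13 went the other way. It had 149, 159.8 and 157 CPM in whole-cell and 207, 178 and 204 CPM in pulldown control libraries, all pulldown values above all whole-cell values, and its log2 change of 0.33 ± 0.09 (SE, adjusted p = 0.00351) was the largest rise among the members. Ndufa13 shares exon sequence on the opposite strand with Tssk6, which averaged 0.261 CPM over the 12 libraries. Ndufa1 was the other higher gene at 0.18 ± 0.07 (SE, adjusted p = 0.0443). Its call was lost in 5 of 6 fits that left out 1 library, with adjusted p up to 0.176.

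Complex IV held genes on both sides. Cox7b changed by -0.58 ± 0.07 (SE, adjusted p = 4.78e-07), Cox6b1 by -0.45 ± 0.09 (SE, adjusted p = 0.000186) and Cox5a by -0.41 ± 0.09 (SE, adjusted p = 0.000661), with Cox6c and Cox7a2 also lower. Cox4i1 was higher at 0.25 ± 0.09 (SE, adjusted p = 0.0257), with 354, 383 and 380.0 CPM in whole-cell and 483, 393 and 461 in pulldown control libraries. Cox7c was higher at 0.20 ± 0.06 (SE, adjusted p = 0.00535) and Cox6a1 at 0.23 ± 0.09 (SE, adjusted p = 0.0384). Cox7c kept its call when any 1 library was left out, whereas Cox4i1 lost it in 3 of 6 such fits (adjusted p up to 0.127) and Cox6a1 in 4 of 6 (up to 0.194). These genes encode subunits that enter the same enzyme, and their RNAs were not shifted together.

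**Figure D3:**
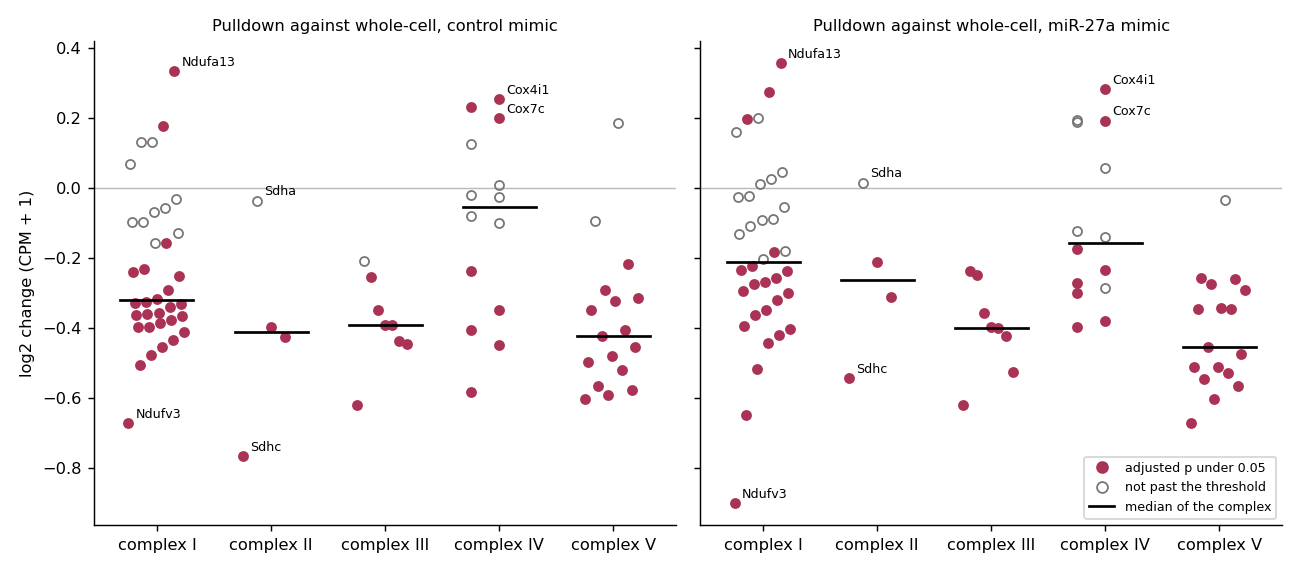
Log2 change of each tested respiratory gene between pulldown and whole-cell RNA, on the log2(CPM + 1) scale, by complex, under the control mimic (left) and the miR-27a mimic (right). Filled points passed the test, open points did not, and lines are medians. Complexes III and V lie below 0 almost throughout, with medians from -0.45 to -0.39, while complex IV holds genes such as Cox4i1 and Cox7c above 0.

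The same contrast under the miR-27a mimic compares the means of the other 6 libraries, but both contrasts share a spread pooled over all 12. In fits of only the 6 libraries compared, 6 member calls were lost and 0 gained under miR-27a. Under control 0 were lost and 4 gained. Under miR-27a, in the fit of all 12, 52 of 79 members were lower and 5 higher, where 60.2% of all genes passed (30.9% lower, 29.3% higher). Without pulldown miR-27a replicate 1 the counts were 59 lower and 3 higher, and without replicate 2 they were 44 and 8. The split was 35 lower and 9 higher when library totals replaced the authors' scaling. The median was -0.27 over the members and -0.01 over all genes. Complex III had 8 of 8 and complex V 16 of 17 genes lower, with medians of -0.40 and -0.45. Complex I had 19 lower and 3 higher of 36, complex II 3 lower of 4, and complex IV 6 lower and 2 higher of 14. The complex sums changed by -9.36% in complex I, -11.8% in complex II, -22.5% in complex III, -1.64% in complex IV and -21.3% in complex V, and the libraries overlapped in complexes I and IV. Without pulldown replicate 1 the changes were -15.0%, -17.0%, -26.2%, -7.25% and -25.5%, with no overlap. Without replicate 2 they were -4.12%, -7.40%, -18.5%, 3.88% and -16.9%, so that complex IV changed sign. Of the members, 48 were lower under both mimics, which is 88.9% of those lower under control and 92.3% of those lower under miR-27a. Such agreement was general, as the change had the same sign under both mimics in 91.1% of members and 87.5% of all genes. Ndufa13, Ndufa1, Cox4i1 and Cox7c were higher under both, where under miR-27a the calls of Ndufa1 and Cox4i1 were lost in 3 and 2 of 6 fits that left out 1 library (adjusted p up to 0.145). Across the 79 members the changes under the mimics correlated with Pearson's r of 0.86, as a description over genes, against 0.90 over all 13875 genes.

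Under miR-27a the deepest fall was that of Ndufv3, with 138, 137 and 132 CPM in whole-cell and 79.7, 63.2 and 74.9 CPM in pulldown libraries, a log2 change of -0.90 ± 0.09 (SE, adjusted p = 7.08e-08). The groups stood further apart than under the control mimic. The largest rise was again Ndufa13 at 0.36 ± 0.09 (SE, adjusted p = 0.00222), and Ndufc2, an accessory subunit of the membrane arm, joined the higher genes at 0.28 ± 0.07 (SE, adjusted p = 0.00296). Atp5e changed by -0.67 ± 0.07 (SE, adjusted p = 1.38e-07), Ndufb2 by -0.65 ± 0.09 (SE, adjusted p = 7.19e-06) and Uqcrq by -0.62 ± 0.09 (SE, adjusted p = 8.89e-06). Sdha again did not differ detectably, at 0.02 ± 0.06 (SE, adjusted p = 0.831). The difference between the mimics in these contrasts was tested directly, and limma called 0 of 79 members, where 1.07% of all genes passed (0.339% higher, 0.735% lower). At an unadjusted p under 0.05 there were 5, and limma voom on the recovered reads also called 0. Without pulldown miR-27a replicate 2, 3 members passed, all higher under miR-27a.

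Respiratory genes have short mRNAs, and many are well expressed. The 79 tested members had a median exon length of 908 bases (371 to 4942), against 3116 bases over the 13555 tested genes with an annotated length. Among all tested genes above 500 bases the change in the control pulldown moved with length, from a median of -0.16 at 500 to 1000 bases to 0.06 at 3000 to 6000 bases and 0.11 above 6000. The shortest class, up to 500 bases with 255 genes, broke this order with a median of 0.01, and its 6 members had a median of -0.30. Members had medians of -0.33 at 500 to 1000 bases (37 genes), -0.30 at 1000 to 1500 (16 genes) and -0.40 at 1500 to 2000 (11 genes). In these 3 classes they lay below all genes of their length, at -0.16, -0.10 and -0.06. The change moved with level as well. Genes with 100 to 300 CPM had a median of -0.17, and 50.2% of them were lower, against a median of -0.25 and 22 of 38 for the members in that class. At 30 to 100 CPM the median was -0.08 with 40.2% lower, against -0.36 and 27 of 31 for the members. Among the members themselves, Spearman's rho of the change was -0.08 with length and 0.16 with level over 79 genes. Length and level thus moved with the comparison over all genes, and their part in the result for the members was not tested further.

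**Figure D4:**
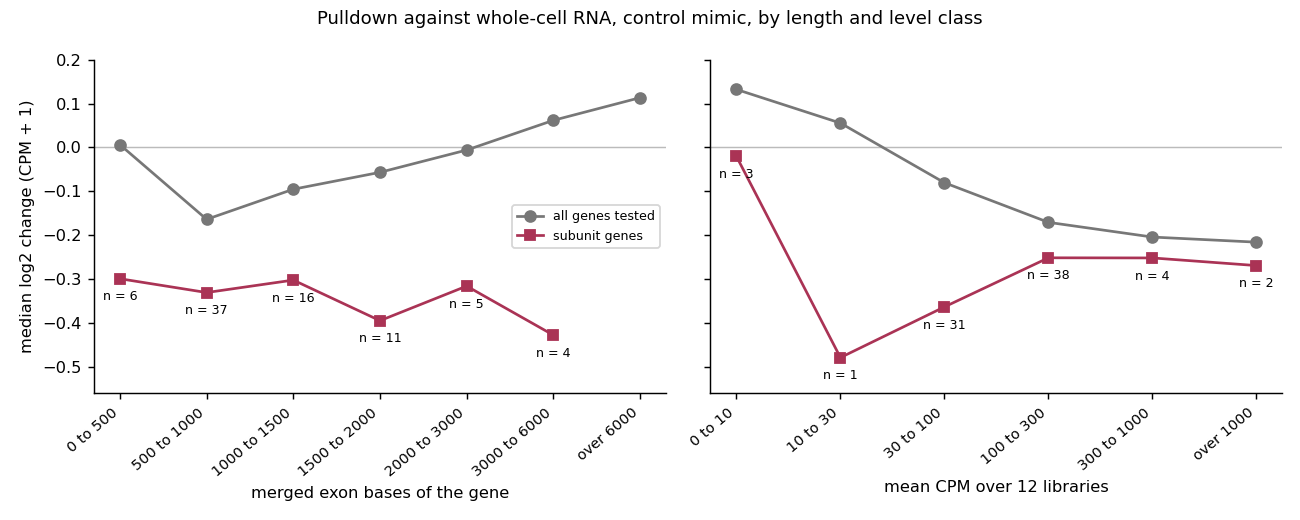
Median log2(CPM + 1) change between control pulldown and whole-cell control RNA for classes of exon length (left) and of mean CPM (right), for all genes tested and for the respiratory genes, whose number stands beside each point. The respiratory medians lie below those of all genes in each class that holds members, and the gap is smallest at 100 CPM and above.

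Markers of cell types are given for the same comparison, in which 31.7% of all genes were higher and 30.3% lower. The summed level of 10 OPC markers was 2349 to 2425 CPM in whole-cell control and 3756 to 3796 in pulldown control libraries, with 6 of 10 higher and 0 lower. The 7 oligodendrocyte markers summed to 11922 to 12485 against 5867 to 6585 CPM, with 6 of 7 lower. The 8 astrocyte markers summed to 7987 to 8027 against 5367 to 5518 CPM, with 5 lower and 2 higher. Neuron markers summed to 74.5 to 78.1 against 48.4 to 50.3 CPM (5 of 6 tested lower, 1 higher), and microglia markers to 16.7 to 20.2 against 17.5 to 24.3 (1 of 6 higher). The vascular and fibroblast markers summed to 104 to 114 against 325 to 352 CPM, with 6 of 8 tested higher and 1 lower. Under the miR-27a mimic 29.3% of all genes were higher and 30.9% lower in the pulldown. There the OPC markers summed to 2435 to 2449.9 CPM in whole-cell and 4320.0 to 4501 in pulldown libraries (8 of 10 higher, 0 lower). Oligodendrocyte markers summed to 11371 to 11817 against 4495 to 5514 CPM (7 of 7 lower) and astrocyte markers to 6801 to 6857 against 3880.3 to 4371 CPM (5 lower and 1 higher of 8). There neuron markers had 5 lower and 0 higher of 6, microglia markers 1 lower and 1 higher of 6, and vascular markers 1 lower and 6 higher of 8. No marker was at 0 reads in all libraries. Pulldown and whole-cell RNA differ in which RNA was recovered, so these marker shifts are not a measure of cell numbers. In bulk RNA, fewer cells of a type and less RNA per cell cannot be told apart either. The part of these shifts in the result for the respiratory genes was not tested.

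Promoters were searched for motifs of 2 factors known for respiratory genes. RefSeq's promoter table (GRCm38.p6, from 250 bases before to 50 after the start) held 67 members. An ETS motif, CCGGAAGT, as bound by GABPA, and a YY1 motif, AAGATGGCG, were searched on both strands. A gene with several promoters was counted once, as a match if any of them held the motif. The ETS motif was found for 5 of 67 members (7.46%), against 4.31% of all 27025 genes of the table and 5.69% of 17492 coding genes. The YY1 motif was found for 8 members (11.9%), against 1.64% and 2.14%. These were 5 of 32 members of complex I and 3 of 14 of complex V, with 0 of 3, 0 of 5 and 0 of 13 in complexes II, III and IV. A match is a description of letters and not a measured site. The windows below show the first match in 1 promoter of each complex that holds any, with 10 bases on either side, 5′ to 3′ on the gene's strand, and the match (on either strand) in capitals.
Ndufa9, YY1, chr6:126849097-126849125, minus strand: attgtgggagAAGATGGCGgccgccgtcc
Uqcr11, ETS, chr10:80406870-80406897, minus strand: tctctcctccCCGGAAGTagatgtcaat
Cox8a, ETS, chr19:7217605-7217632, minus strand: tttccgaaatACTTCCGGctcgggcgtc
Atp5h, ETS, chr11:115419941-115419968, minus strand: caaggagagaACTTCCGGcaactctctt
In the control pulldown Atp5h and Ndufa9 were lower, with Ndufa9 at -0.23 ± 0.09 (SE, adjusted p = 0.0284), a call lost in 4 of 6 fits that left out 1 library (adjusted p up to 0.114). Uqcr11 at -0.21 ± 0.09 (SE, adjusted p = 0.0575) and Cox8a at -0.08 ± 0.10 (SE, adjusted p = 0.518) were not called.

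The next comparison asked how respiratory RNAs differed in whole cells under miR-27a. The complex sums hardly moved. All members summed to 14293, 14813 and 14518 CPM in the control and 14451, 14450.1 and 14608 CPM in the miR-27a libraries, and the ranges overlapped. By complex the means changed by -1.42% in complex I, -4.93% in complex II, -1.19% in complex III, 0.83% in complex IV and 1.01% in complex V. Beneath these sums single genes moved in both directions by small amounts. Of 78 members tested, 8 rose and 15 fell, against 13.0% and 11.9% of all 13393 genes, or 24.9% in all. The split was 5 and 17 with median-of-ratios scaling and 8 and 9 with library totals, and the median of the members was -0.02 against 0.01 over all genes. Leaving out each library in turn kept 11 of the 23 calls in every fit. The count of 23 was 4 in a fit of all 12 libraries, which the capture contrasts use, 15 with the replicate number as a block and 12 with no filter on low values. The shares of all genes called in these other fits are not given here.

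Complex I showed both extremes. Ndufa6, an accessory subunit of the LYR-motif family (chromosome 15, 82350140 to 82354322, minus strand), had 55.8, 60.8 and 57.8 CPM in the control and 72.1, 74.7 and 76.8 CPM in the miR-27a libraries. No values overlapped, and the log2 change of 0.35 ± 0.05 (SE, adjusted p = 7.79e-06) was the largest rise. Ndufa3, an accessory subunit of the membrane arm (chromosome 7, 3617373 to 3620327, plus strand), had 113, 114 and 113 CPM in the control and 88.1, 89.3 and 91.4 under miR-27a. This tight pair of groups gave the largest fall, -0.33 ± 0.04 (SE, adjusted p = 1.43e-06). Ndufa3 overlaps Tfpt on the opposite strand, which averaged 12.4 CPM and changed by -0.06 ± 0.08 (SE, adjusted p = 0.637). Ndufs4, an accessory subunit needed for a stable NADH-oxidising module and known as a Leigh syndrome gene, had 121, 118 and 118 CPM in the control and 98.2, 99.3 and 98.5 CPM under miR-27a, a change of -0.27 ± 0.04 (SE, adjusted p = 1.91e-05). Ndufa4 fell by 0.19 ± 0.03 (SE, adjusted p = 0.000313) on the log2 scale, with Ndufa12 (-0.18) and Ndufv3 (-0.13) also lower. The call of Ndufv3 was lost in 5 of 6 fits that left out 1 library, with adjusted p up to 0.198.

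The rises in complex I other than Ndufa6 were core subunits. Ndufv1, which binds NADH and the flavin, had 148, 175 and 166 CPM in the control and 191, 179 and 193 CPM under miR-27a, a change of 0.21 ± 0.05 (SE, adjusted p = 0.00263). Ndufs7, which holds the last iron-sulfur cluster before ubiquinone, changed by 0.19 ± 0.07 (SE, adjusted p = 0.0446), and Ndufs3 by 0.17 ± 0.05 (SE, adjusted p = 0.00704). The Ndufs7 call was lost in 4 of 6 fits that left out 1 library (adjusted p up to 0.194). That of Ndufs3 was lost in 2 of 6 (up to 0.0638). Of the 7 nuclear-encoded core subunits 3 rose and 0 fell, and of 29 other complex I members tested 1 rose and 5 fell, where 13.0% of all genes rose and 11.9% fell. This division was made after the values were seen, and the difference between the sets was not tested. Ndufs3 overlaps Kbtbd4 on the opposite strand, which averaged 44.0 CPM against 76.7 CPM for Ndufs3 and had a change of 0.13 ± 0.05 (SE, adjusted p = 0.0902). No source used here states the strand setting of the authors' counting, so reads of these partners cannot be told apart. In all, 17 of the 84 members share exon sequence with another gene of the table on the opposite strand. Ndufs1 at -0.07 ± 0.03 (SE, adjusted p = 0.159) did not pass.

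In complex II, Sdhc fell from 107, 94.4 and 97.8 CPM to 78.3, 93.4 and 83.2 CPM, a change of -0.23 ± 0.06 (SE, adjusted p = 0.00372). The highest miR-27a library came close to the lowest control library without reaching it. Sdhb (-0.05) and Sdhd (-0.02) did not pass. In complex III, Uqcrc1 rose by 0.11 ± 0.04 (SE, adjusted p = 0.0387), while Uqcrb (-0.14 ± 0.05 (SE, adjusted p = 0.0404)) and Uqcrh (-0.10 ± 0.04 (SE, adjusted p = 0.0408)) fell. Each of these 3 calls was lost in 4 or 5 of the 6 fits that left out 1 library, with adjusted p up to 0.274.

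In complex IV, Cox8a had 279.8, 251 and 251 CPM in the control and 285, 299.7 and 322 CPM under miR-27a, a rise of 0.21 ± 0.04 (SE, adjusted p = 0.000986), and Cox5b rose by 0.11 ± 0.04 (SE, adjusted p = 0.0442). Cox7b fell from 188, 186 and 188 CPM to 164, 166 and 168 CPM, a change of -0.17 ± 0.04 (SE, adjusted p = 0.000925), and Cox6c from 240.1, 242 and 238 to 213, 213 and 217, a change of -0.16 ± 0.03 (SE, adjusted p = 0.00101). Cox6b1 also fell, by 0.11 ± 0.04 (SE, adjusted p = 0.038) on the log2 scale. Cox4i1 (0.05) and Cox5a (0.11) did not pass. Complex IV thus held rises and falls side by side. The calls of Cox5b and Cox6b1 were lost in 4 and 5 of the 6 fits that left out 1 library (adjusted p up to 0.244).

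In complex V, Atp5b rose from 1690.5, 1749 and 1689 CPM to 1833, 1884 and 1864 CPM, a change of 0.12 ± 0.03 (SE, adjusted p = 0.00442), while Atp5a1, its partner in the catalytic hexamer, was at -0.01 ± 0.03 (SE, adjusted p = 0.867). Atp5f1 fell from 399.9, 412 and 391 to 340.4, 348 and 351 CPM, a change of -0.21 ± 0.03 (SE, adjusted p = 4.61e-05) with no overlap. Atp5f1 overlaps Wdr77 on the opposite strand, which averaged 34.3 CPM and changed by -0.12 ± 0.06 (SE, adjusted p = 0.176). Atp5s fell from 14.7, 15.2 and 12.9 to 10.7, 12.8 and 10.8 CPM, a change of -0.30 ± 0.09 (SE, adjusted p = 0.0247), and its call was lost in 4 of 6 fits that left out 1 library (adjusted p up to 0.111). Atp5h (-0.10) and Atp5e (-0.11) fell slightly, and both calls were lost in most such fits (adjusted p up to 0.174).

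**Figure D5:**
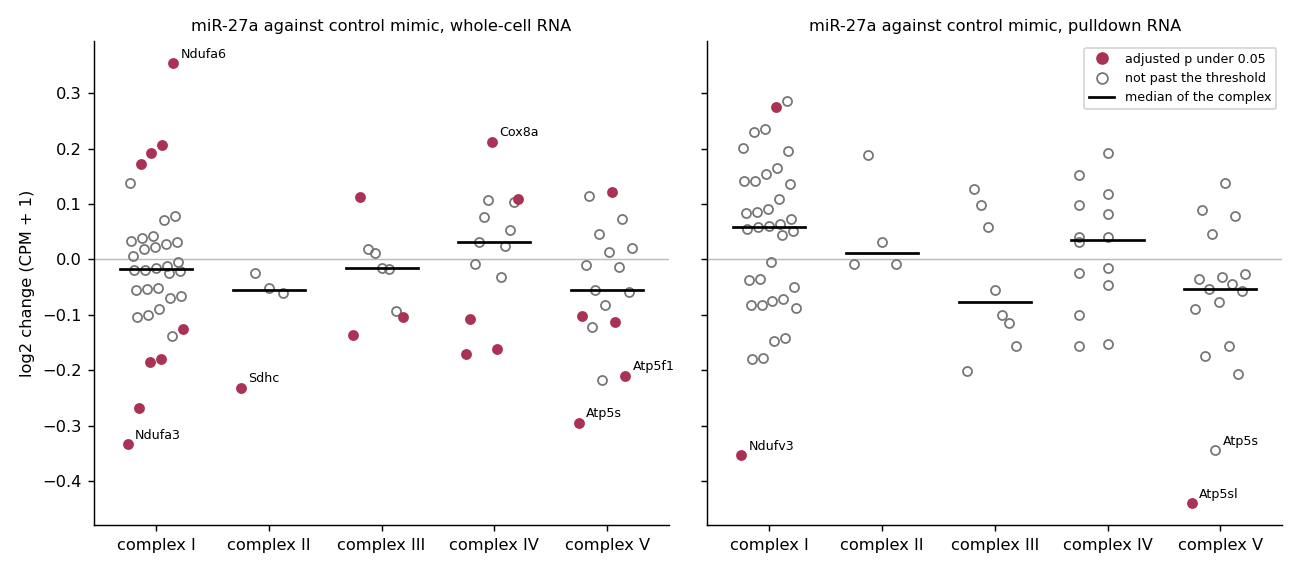
Log2(CPM + 1) change of each tested respiratory gene under miR-27a against control mimic, by complex, in whole-cell RNA (left) and pulldown RNA (right). Filled points passed the test, open points did not, and lines are medians. Ndufa6 (0.35) and Ndufa3 (-0.33) mark the ends in whole-cell RNA, and 3 filled points remain in the pulldown.

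Astrocyte and oligodendrocyte markers were also lower under miR-27a in whole-cell RNA, where 13.0% of all genes were higher and 11.9% lower. The 8 astrocyte markers summed to 7987 to 8027 CPM in the control and 6801 to 6857 CPM under miR-27a, with 6 lower and 1 higher. The 7 oligodendrocyte markers summed to 11922 to 12485 against 11371 to 11817 CPM, with 3 lower. OPC markers summed to 2349 to 2425 against 2435 to 2449.9 CPM, with 5 higher and 1 lower of 10. Of the other lists, 1 of 5 tested microglia markers and 1 of 6 neuron markers were lower, and vascular markers had 1 higher and 1 lower of 5. Their part in the result for the respiratory genes was not tested.

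Seed matches are shown because pairing of the seed with 3′ UTRs is how a microRNA is known to act. The labels do not name the arm of miR-27a. The mature sequence of miR-27a-3p in RefSeq, with the seed (bases 2 to 8) in capitals, is given first, followed by the 2 members with an 8mer match and the 2 with a 7mer match that fell in either comparison. Each window is 30 bases of the 3′ UTR, 5′ to 3′, with the match in capitals.
miR-27a-3p: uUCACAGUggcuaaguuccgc
Sdha, 8mer, chr13:74322347-74322354, minus strand: gtctacttctcACTGTGAAtgtaactagtt
Atp5s, 8mer, chr12:69743917-69743924, plus strand: tcaccaatagaACTGTGAAaatgattcaga
Ndufs4, 7mer, chr13:114288730-114288736, minus strand: atctctgcttgACTGTGActgaagtgtcag
Atp5sl, 7mer, chr7:25625448-25625454, plus strand: cactcctatcaACTGTGAttgatcctggcg
Matches (ACTGTGAA, ACTGTGA or CTGTGAA) were in the 3′ UTRs of 13 of 84 members (15.5%) and of 27.3% of 17119 genes with an annotated 3′ UTR. The members' 3′ UTRs were also shorter, with a median of 195 against 1051 bases. Of the 13 members with a match, 2 fell in whole-cell RNA (Ndufs4 and Atp5s) and 0 rose. Of the 65 tested members without one, 13 fell and 8 rose, and both sets had a median change of -0.02. Over all genes tested 11.9% fell and 13.0% rose. In pulldown RNA 1 of 13 members with a match fell and 0 rose (median -0.07), and of 66 without one 1 fell and 1 rose (median 0.04), against 7.06% lower and 6.05% higher over all genes. Sdha, with an 8mer, had 266, 292 and 293 CPM in the control and 271, 269.5 and 275 CPM under miR-27a, a change of -0.06 ± 0.04 (SE, adjusted p = 0.269). Ndufa3, with the largest fall, has no match in its 3′ UTR.

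In pulldown RNA, miR-27a against control mimic gave few calls. Of 79 members 1 rose and 2 fell, against 13.1% of all 13586 genes tested, 6.05% higher and 7.06% lower. The complex sums changed by 2.09% in complex I, 3.20% in complex II, -1.13% in complex III, 2.27% in complex IV and 0.65% in complex V, within the spread of the libraries. All members summed to 12919, 11576 and 12345 CPM in the control and 13855, 11059.6 and 12429 CPM in the miR-27a pulldown, where replicates 1 and 2 mark the ends of both groups. The spread between these replicates is wider than the mean change.

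Ndufa6 rose in the pulldown as it did in whole cells, with 55.1, 51.3 and 49.8 CPM in the control and 67.1, 60.4 and 62.1 CPM under miR-27a, a change of 0.28 ± 0.09 (SE, adjusted p = 0.0499). Ndufv3 fell from 104, 82.9 and 92.6 to 79.7, 63.2 and 74.9 CPM, a change of -0.35 ± 0.10 (SE, adjusted p = 0.0347). Atp5sl, a low-level gene, fell from 6.23, 5.48 and 5.91 to 4.28, 3.91 and 4.003 CPM, a change of -0.44 ± 0.14 (SE, adjusted p = 0.0482). The libraries of the 2 groups did not overlap in any of these 3 genes. None of the 3 calls held in all 6 fits that left out 1 library. The count was 0 without pulldown control replicate 1 or 3 or pulldown miR-27a replicate 3, and 1 without pulldown control replicate 2. Without pulldown miR-27a replicate 1 it was 3, all lower. It was 14 (12 higher, 2 lower) without pulldown miR-27a replicate 2, the library in which nearly all members were low. The shares of all genes called in these fits are not given here, so the counts are not read as particular to the members. With the replicate number as a block, since same-numbered pulldown libraries deviated together, 6 members passed: Ndufa6, Ndufb4, Ndufa12 and Ndufs3 as higher and Ndufv3 and Atp5sl as lower, against 20.2% of all genes.

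The whole-cell and pulldown comparisons of the mimics share no library. Ndufa6 rose and Ndufv3 fell in both. Of the 23 members called in whole cells, 18 had the same sign in the pulldown, and across 78 members Pearson's r of the changes was 0.51 as a description, against 0.64 over 13203 genes. Called or not, 69.2% of the 78 members and 67.5% of the 13203 genes had the same sign in both. Atp5s had 9.71, 10.7 and 9.39 CPM in the control and 7.21, 8.84 and 6.89 under miR-27a, groups without overlap, at -0.34 ± 0.13 (SE, adjusted p = 0.105). Ndufs4 (-0.15 ± 0.09 (SE, adjusted p = 0.297)) and Ndufa3 (-0.18 ± 0.11 (SE, adjusted p = 0.309)) kept their sign and did not pass.

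In this comparison the OPC markers summed to 3756 to 3796 CPM in control and 4320.0 to 4501 CPM in miR-27a pulldown libraries (4 of 10 higher), oligodendrocyte markers to 5867 to 6585 against 4495 to 5514 (5 of 7 lower), and astrocyte markers to 5367 to 5518 against 3880.3 to 4371 (5 of 8 lower). Microglia, neuron and vascular markers each had 1 lower gene, of 5, 6 and 7 tested. Between mimics in the pulldown 6.05% of all genes were higher and 7.06% lower. Their part in the calls was not tested.

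Genes around the respiratory chain were described in the same way. The symbol rule misses 9 further genes, which are subunits such as Ndufab1 and Cyc1 and genes that are not, such as Cycs and Atpif1. Of these 9, 6 were lower and 0 higher in the control pulldown, with a median of -0.45, where 30.3% of all genes were lower and 31.7% higher. The deepest fall was that of Cycs, which encodes cytochrome c (-0.71 ± 0.06 (SE, adjusted p = 2.76e-08)). Under miR-27a the counts were again 6 and 0. In whole cells 2 fell and 1 rose, where 11.9% of all genes fell and 13.0% rose. The falls were 2010107E04Rik, a small ATP synthase subunit, at -0.32 ± 0.04 (SE, adjusted p = 2.25e-06) and Usmg5, another, at -0.26 ± 0.04 (SE, adjusted p = 7.27e-05). Between mimics in the pulldown 0 passed, where 13.1% of all genes did.

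Assembly factors build the complexes without staying in them. Of 49 tested, 17 were lower and 7 higher in the control pulldown (median -0.17), and 17 and 10 under miR-27a. The lower genes were 34.7% of the list in both, near the 30.3% and 30.9% of all genes. Ndufaf2, a complex I factor, changed by -1.03 ± 0.09 (SE, adjusted p = 1.79e-08) and Sdhaf1, a complex II factor, by 0.70 ± 0.08 (SE, adjusted p = 6.13e-07) under control. Under miR-27a in whole cells 7 of 48 fell (14.6%, against 11.9% of all genes) and 1 rose, with Cmc1, a complex IV factor, at -0.37 ± 0.09 (SE, adjusted p = 0.00308). In the pulldown 4 of 48 fell (8.33%, against 7.06% of all genes) and 0 rose, among them Sdhaf1 at -0.52 ± 0.10 (SE, adjusted p = 0.00213).

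Lists of other energy genes and of ribosomal proteins are set beside the 30.3% of all genes lower in the control pulldown and the 30.9% under miR-27a. Citric acid cycle genes had 15 lower and 0 higher of 19 (median -0.40), among them Sucla2 at -0.73 ± 0.06 (SE, adjusted p = 2.31e-08), and again 15 and 0 under miR-27a. Glycolysis genes had 15 lower and 2 higher of 21 (median -0.48), among them Aldoa at -1.03 ± 0.09 (SE, adjusted p = 2.85e-08), and 16 and 2 under miR-27a. Carriers and channels for ADP, ATP and phosphate had 5 lower and 0 higher of 7 (median -0.44), among them Slc25a4 at -0.52 ± 0.06 (SE, adjusted p = 7.10e-07), and 5 and 1 under miR-27a. Mitochondrial ribosomal proteins had 44 lower and 2 higher of 76 (median -0.25), and 49 and 1 under miR-27a. Cytosolic ribosomal proteins had 50 lower and 0 higher of 80 (median -0.20), and 31 and 0 under miR-27a. The lower genes were 78.9%, 71.4%, 71.4%, 57.9% and 62.5% of these lists in that order under control, and 78.9%, 76.2%, 71.4%, 64.5% and 38.8% under miR-27a, the last of which is not far from the share over all genes.

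Regulators of respiratory genes had more members on the higher side in this contrast. Of 15 tested, 8 were higher and 2 lower in the control pulldown (median 0.18), and 7 and 4 under miR-27a, where 31.7% and 29.3% of all genes were higher. Pprc1, a coactivator related to PGC-1, was higher at 1.05 ± 0.15 (SE, adjusted p = 5.65e-06) and Nrf1 at 0.38 ± 0.07 (SE, adjusted p = 0.00022), while Gabpa was lower at -0.75 ± 0.08 (SE, adjusted p = 1.35e-07). Gabpa overlaps Atp5j on the opposite strand.

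Under miR-27a in whole cells, where 13.0% of all genes rose and 11.9% fell, 19 of 80 cytosolic ribosomal protein genes fell and 2 rose. Citric acid cycle genes had 2 higher and 2 lower of 19, with Pdha1, part of pyruvate dehydrogenase, at -0.22 ± 0.03 (SE, adjusted p = 2.39e-05) and Idh2 at 0.21 ± 0.04 (SE, adjusted p = 0.000335). Glycolysis genes had 5 higher and 4 lower of 21, with the muscle-type phosphofructokinase Pfkm at -0.36 ± 0.04 (SE, adjusted p = 1.35e-06) and the lactate transporter Slc16a1 at -0.26 ± 0.03 (SE, adjusted p = 5.60e-06) among the falls, and the pyruvate kinase Pkm2 at 0.16 ± 0.03 (SE, adjusted p = 0.000594) and another lactate transporter, Slc16a3, at 0.62 ± 0.19 (SE, adjusted p = 0.016) among the rises. Slc16a3 was named after its value was seen, as the largest rise of the list. Carriers had 1 higher of 7, Vdac1 at 0.13 ± 0.04 (SE, adjusted p = 0.019), and mitochondrial ribosomal proteins 5 higher and 2 lower of 76. Regulators had 3 higher and 1 lower of 15. Gabpb2, a partner of GABPA, was at 0.29 ± 0.05 (SE, adjusted p = 0.000185) and Creb1, a transcription factor, at 0.16 ± 0.04 (SE, adjusted p = 0.00155), while Tfam, which maintains mitochondrial DNA, was at -0.18 ± 0.05 (SE, adjusted p = 0.0109). In the pulldown between mimics 6.05% of all genes were higher and 7.06% lower. There glycolysis genes had 2 lower of 21 (9.52%), among them Pdk1 at -0.52 ± 0.10 (SE, adjusted p = 0.00319). Mitochondrial ribosomal proteins had 2 higher and 1 lower of 76, cytosolic ribosomal proteins 1 lower of 80, and 0 citric acid cycle genes, carriers or regulators passed.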

How the data were processed

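The authors deposited log2 CPM values for 20540 genes in 12 libraries. Per the series' design text, libraries were stranded total RNA after ribosomal depletion, trimmed with skewer, aligned with HISAT2 to GRCm38 and counted with featureCounts, and normalised with edgeR by the authors. No source used here gives versions, and the submitters' processing notes also name mm8 without a role. Groups and replicate numbers came from the sample titles.

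CPM were recovered as 2 to the power of each value minus that of 0 reads, and 100% of values were whole reads within 0.01 reads. limma 3.58.1 (R 4.3.3, empirical Bayes with trend, two-sided) tested log2(CPM + 1) for genes that reached 1 CPM in 3 or more libraries of the fit, with Benjamini-Hochberg adjustment over all genes and a threshold of 0.05. The log2 scale with a pseudocount of 1 CPM understates changes of low genes. Mimics were compared within whole-cell or pulldown RNA (6 libraries each). Pulldown was compared with whole-cell RNA, and these contrasts between mimics, in a fit of all 12 libraries, where the spread is pooled over the 4 groups. Fits were tested on simulated data. Python 3.11.15, pandas 2.3.3, numpy 2.4.6, scipy 1.17.1 and matplotlib 3.10.9 made tables and plots.

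Exon lengths are those of principal coding transcripts, and 3′ UTRs the longest, of GENCODE M21 (GRCm38). Promoters and the miRNA come from RefSeq (GRCm38.p6). All 84 members matched the annotation, and 2 on chromosome 18 were left out of sequence display.

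Members and lists were chosen with earlier results of these data known, so lists are described by counts and medians without a test. Genes were named by rule: per comparison and complex the 3 called members with the smallest p, the largest called rise and fall, the highest and lowest tested member per complex by CPM per kb, core subunits, isoform pairs, and up to 3 called genes of other lists. A few further members were named after their values were seen. The values of 1 core subunit are not reported here.

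Same-numbered pulldown libraries of the 2 mimics deviated together from their group means (correlations over genes of 0.13, 0.27 and 0.11), whereas whole-cell libraries did not (0.00, -0.03 and -0.03). The labels do not say what the number marks. Alternatives were other pseudocounts, filters, scalings, a replicate block, limma voom on the recovered reads, other fits, each library left out in turn, and member sets.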

Additional observations from a re-analysis of the deposited data

How the results depend on the processing

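The median change of the respiratory genes between pulldown and whole-cell RNA stayed below 0 under every alternative run, with 44 to 63 members called per mimic and medians from -0.37 to -0.17. The summed CPM of complex IV changed sign in that contrast without pulldown replicate 2, to 0.80% under control and 3.88% under miR-27a, an alternative chosen after seeing the data. The sums were not recomputed with other scalings. The whole-cell count of 23 was 12 with no filter on low values, 15 with the replicate block, 4 in a fit of all 12 libraries and 12 to 22 with each library left out. The lowest counts came without whole-cell miR-27a replicate 3 (12), miR-27a replicate 1 (13) and control replicate 3 (14). The pulldown count of 3 between mimics was 1 with a pseudocount of 0.5 CPM, 0 with no filter, 6 with the replicate block, 8 in a fit of all 12 libraries and 0 to 14 with each library left out. Leaving out both libraries of pair 1 gave 0 and of pair 2 gave 10, an alternative chosen after seeing the data. Counts of members under these alternatives stand without the shares of all genes called. They do not show whether a change in calls was particular to the members. The count for the difference between mimics was 0 in the other alternatives and 0 to 3 with each library left out. The block gave 59 and 60 members in the capture contrasts under control and miR-27a, where same-numbered libraries did not all deviate together. In whole cells the median of complex III was -0.036 with median-of-ratios scaling (-0.016 as reported), and that of complex V was -0.013 without Atp5s, Atp5sl, Cox7a2l and Ndufa4l2, also with Cox4nb left out (-0.055 as reported). The cause was not tested. Library totals moved the median of all genes to 0.10 and 0.08 in the capture contrasts. Genes below about 1 CPM could not be compared at this depth.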
